A study of Cynodon dactylon with 6 samples.

Results

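A set of 92 leaf transcripts of the warm-season grass Cynodon dactylon (bermudagrass, grown as turf and forage) stood near their control level after 2 h of heat and at least 8 times above it after 12 h. The set was chosen from 111743 unigenes, gene-level units of the deposited tables, by their read counts. Each count was divided by its library's size factor (the median ratio to the mean of all libraries), the values were averaged per group, and 1 was added to each mean. A unigene entered when its 12 h mean was at least 150 and at least 8 times the control mean, while its 2 h mean was below 2 times the control mean and above the control mean divided by 1.5. Those values chose the members, so the levels and ratios over control given here describe the set and support no test.

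The samples were leaves of wild-type seedlings, 10 days old, in 3 groups of 2 libraries: an unheated control (labelled 0 h), leaves from 2 h of heat, and leaves from 12 h of heat, both at 42 °C. Whether the replicates were separate plants or pools is not stated, so p-values reflect only library-to-library spread, which may be technical. No unheated leaves from the 2 h or 12 h time points were analysed here, so length of heat and time of sampling cannot be told apart. Library totals ran from 6313500 to 9326725 reads, and 25828 unigenes, all 92 members among them, passed the abundance filter for testing. Since a member had to reach 150 normalized reads at 12 h, passing that filter is no result about the set.

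Plants answer heat in layers. Heat shock transcription factors switch on chaperone genes soon after the temperature rises, and these chaperones bind proteins that have lost their fold. Transcripts that accumulate only after hours of heat are known in other plants to include targets of factors made in the first layer, genes of hormone pathways such as abscisic acid, and genes of sugar, lipid and cell wall metabolism. No source used here pairs a unigene with a gene name or a sequence. The members therefore cannot be sorted into these classes, and the leaf label could not be checked against marker genes. Members are described by abundance, size and pattern instead, with 2 of them given by ID. In bulk leaf RNA, fewer cells of a type and less RNA per cell cannot be told apart.

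Read levels of the members differed widely within each group. The median member had 31.2 and 27.3 normalized reads in the control libraries, 36.9 and 36.5 after 2 h, and 417 and 406 after 12 h. Control values ran from 0 to 393 in replicate 1 and from 0 to 391 in replicate 2, while the lowest member stood at 156 and 141 in the 12 h libraries and the highest at 7830 and 7380. Within each of the 92 members, both 12 h libraries lay above the 4 other libraries, a pattern that 30.8% of all tested unigenes showed and that the choice of members largely fixes. The lower 12 h library exceeded the highest of the 4 others by 4.61 to 215 times, with a median of 9.47.

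**Figure D1:**
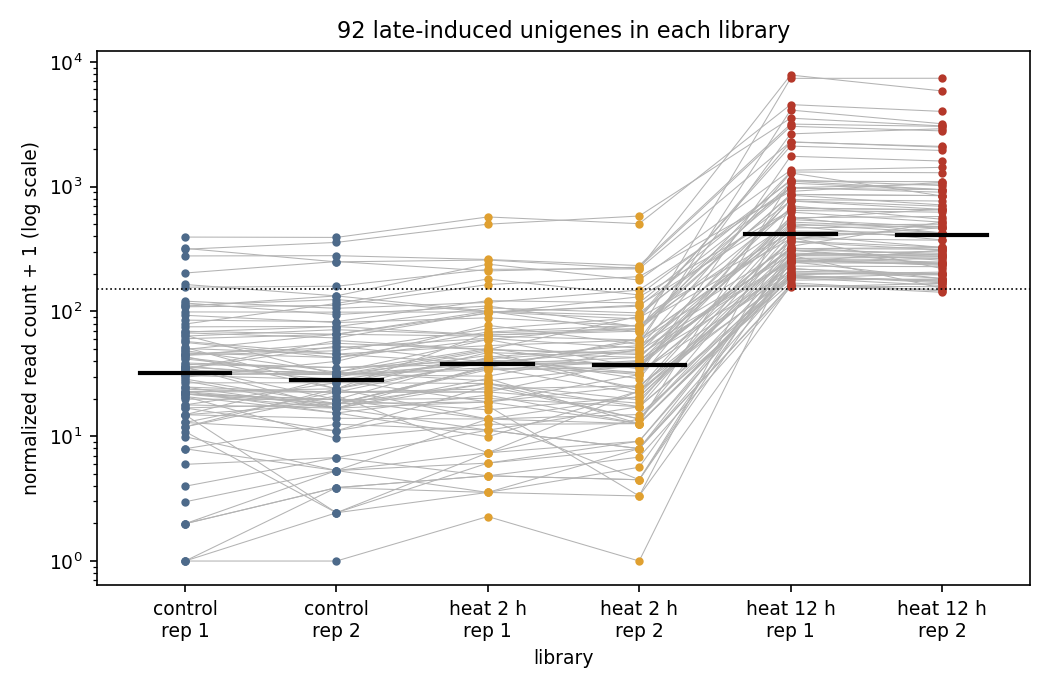
Normalized read count + 1 (log axis) of each of the 92 members in each of the 6 libraries; grey lines join the values of a member, black bars are medians, and the dotted line is the level limit of 150. The medians lie between 27.3 and 36.9 normalized reads in the control and 2 h libraries and at 417 and 406 in the 12 h libraries.

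Together the members took 0.0541% and 0.0523% of the reads in the control libraries, 0.0640% and 0.0676% after 2 h, and 1.35% and 1.28% after 12 h. In reads these were 4915 and 3301 in the controls, 4615 and 4979 after 2 h, and 111769 and 119010 after 12 h. The 4 members with the most 12 h reads accounted for 17.3% ± 0.262 of the set's reads in the controls, 15.8% ± 1.75 at 2 h and 27.9% ± 1.30 at 12 h (SD, n = 2 each).

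On the FPKM scale, which divides by transcript length and library total, the median member stood at 1.83 and 1.49 FPKM in the controls, 2.06 and 1.985 FPKM after 2 h, and 43.2 and 44.6 FPKM after 12 h. With library totals in place of size factors the median log2 ratio of 12 h to control over all tested unigenes was 0.72 instead of 0.15. Folds at 12 h are therefore larger in FPKM than in normalized counts. Ranked by mean FPKM among all 111743 unigenes, no member was among the first 5000 in the controls or after 2 h. After 12 h 51 members were among the first 5000 and 17 among the first 1000. The median rank was 33124 in the controls and 3860 after 12 h.

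The size of the late rise varied widely within the set. The 12 h mean was 8.05 to 364 times the control mean, with a median of 12.8 and quartiles of 9.93 and 22.8. In 24 members the ratio lay between 8 and 10, in 32 between 10 and 16, in 20 between 16 and 32, in 10 between 32 and 64, and in 6 it was 64 or more. For 25 members with a low control level the level limit of 150, not the 8-fold limit, set the least ratio they could have, and their median ratio was 25.2, against 11.0 for the other 67. EdgeR's quasi-likelihood test over all tested unigenes called all 92 members higher after 12 h than in the controls, where 27.6% of tested unigenes were called higher, and all 92 higher after 12 h than after 2 h, where 22.9% were. Both outcomes follow from the choice of members.

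**Figure D2:**
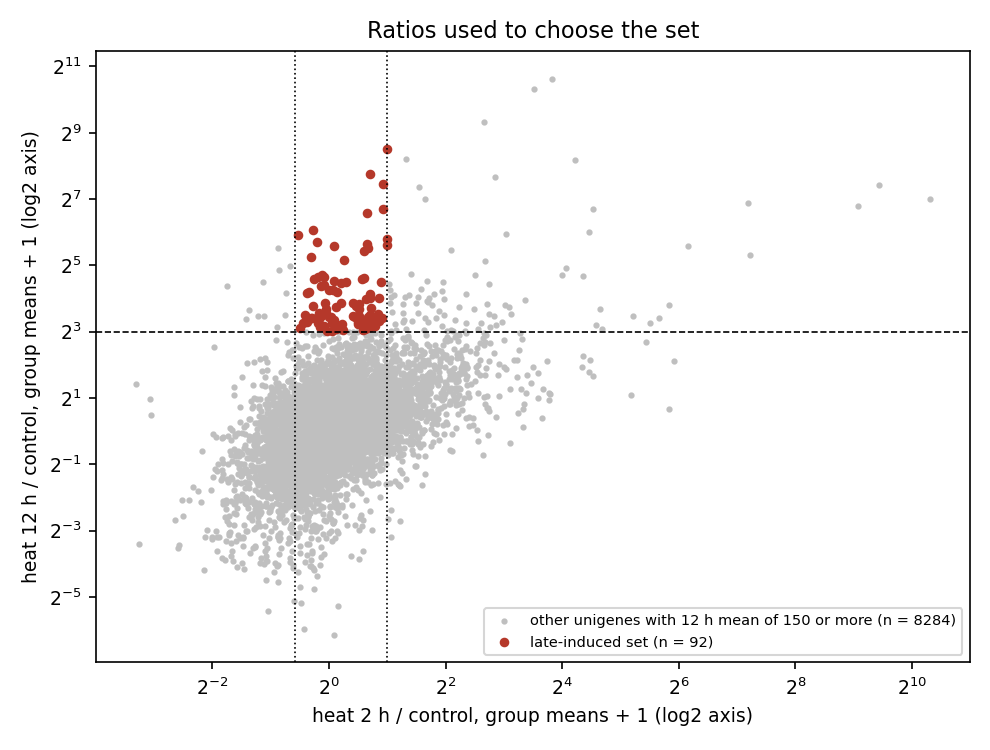
Each point is a unigene with a 12 h mean of at least 150; the x axis is the ratio of the 2 h to the control mean and the y axis that of the 12 h to the control mean, both on log2 axes with 1 added to each mean. The dashed line is the 8-fold limit, the dotted lines are the 2 h limits, and the 92 members (red) fill the box between them, with 12 h ratios from 8.05 to 364.

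The most abundant member per transcript length after 12 h was c89898_g2. Its FPKM was 5.25 and 4.29 in the controls, 18.6 and 17.2 after 2 h, and 952 and 749 after 12 h. Its normalized read count was 319 and 248 in the controls, 257 and 219 after 2 h, and 7830 and 5843 after 12 h. Both scales were far higher at 12 h than before, but they differ at 2 h: the 2 h libraries overlapped the controls in read counts, while both lay above both controls in FPKM.

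The gap corresponds to a change in the transcript length implied by count, FPKM and library total. For c89898_g2 that length was 6619 bases in the controls, 1503 bases after 2 h and 1330 bases after 12 h, so that a read stood for more FPKM in heated leaves. With its counts put at 1 fixed length, the 2 h mean was 3.64 times and the 12 h mean 117 times the control mean, and c89898_g2 would not have entered the set. Among the 75 members with at least 20 reads in every group it was the only one whose implied length in heated leaves differed by more than 1.5 times from that in the controls, at 2 h and at 12 h. Such a shift was seen after 12 h in 2.29% of the 19364 tested unigenes with that many reads. At fixed length 90 of the 92 members still met the rule; the other exception, with 38 control reads, had a 2 h ratio of 2.19.

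The member at rank 2, c74062_g2, stood at 16.8 and 19.0 FPKM in the controls, 21.1 and 18.4 FPKM after 2 h, and 718 and 491 FPKM after 12 h. Its implied length was only 294 bases, among the 6 members under 600 bases. Its normalized read count was 44.6 and 50.3 in the controls, 59.8 and 49.9 after 2 h, and 1286 and 841 after 12 h, so the 2 libraries of the last group differed by more than 1.5 times. By its ID it shares a component, here the unigenes whose IDs differ only in the final _g number, with a far more abundant unigene. The latter did not follow it. That partner had 103204 and 45346 normalized reads in the controls, 43861 and 60389 after 2 h, and 37787 and 20612 after 12 h, with a log2 fold change of -1.37 ± 0.59 at 12 h against control (SE; edgeR adjusted p = 0.143). Reads may be split between unigenes of a component, which makes the level of this short member uncertain.

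The members at ranks 3 and 4 had larger ratios. The third stood at 1.83 and 2.44 FPKM in the controls, 4.44 and 3.22 FPKM after 2 h, and 373.5 and 298 FPKM after 12 h, and its 12 h mean normalized count was 105 times the control mean. Its 2 h mean was 1.90 times the control mean, close to the upper limit, and both 2 h libraries lay above both controls. The fourth stood at 3.27 and 3.90 FPKM in the controls, 2.88 and 2.10 FPKM after 2 h, and 323 and 334 FPKM after 12 h. It had the lowest 2 h ratio of the set, 0.69, with both 2 h libraries below both controls, and then reached 60.7 times the control mean. These are opposite courses at 2 h that ended at similar levels.

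The members at ranks 5 to 10 reached mean values of 283, 243, 228, 212, 199 and 198 FPKM after 12 h, in order of rank, from control means of 17.3, 3.52, 15.4, 10.9, 11.0 and 7.06 FPKM. Their 12 h means differed from one rank to the next by less than the larger SD of the pair in 4 of these 5 steps, the exception being the step from rank 5 to rank 6. Those with control means above 10 FPKM, at ranks 5 and 7 to 9, rose by 9.81 to 12.9 times in normalized counts. The members at ranks 6 and 10 rose by 43.6 and 18.5 times.

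**Figure D3:**
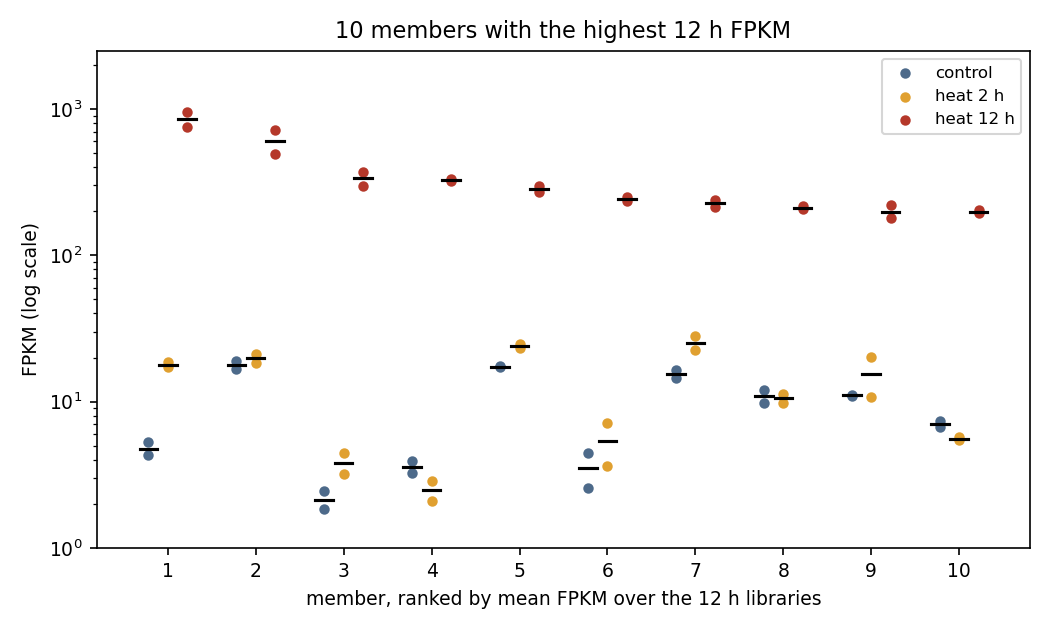
FPKM (log axis) of the 10 members with the highest mean FPKM over the 12 h libraries; each dot is a library and each black bar a group mean (n = 2). All 12 h values lie at 179 FPKM or above and all control and 2 h values at 28.0 FPKM or below; at rank 1 the 2 h libraries also lie apart from the controls.

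The largest relative rises belonged to members that were barely detected before 12 h. Ratios for these rest on few control reads and are given from pooled reads with an exact 95% binomial interval, which covers counting error only. The member with the largest ratio had 0 and 1 reads in the controls and 946 and 859 after 12 h. Its ratio was 1054 (interval 189 to 41664), or 364 from the rule's means, which have 1 added. The next had 0 and 2 control reads and 515 and 735 reads after 12 h, a ratio of 365 (interval 101 to 3018), and the one after it had 1 and 2 control reads and 376 and 434 reads after 12 h, a ratio of 158 (interval 53.8 to 766). One member had no control read, 1 read after 2 h, and 379 and 240 reads after 12 h. Its ratio was 121 with 3 control reads in all taken as a floor. That value rests on the assumed floor, is no lower bound and carries no interval, unlike the other ratios here. The fifth is the member at rank 3 described above, with 56 control reads and 10548 reads after 12 h. Its ratio was 110 (interval 84.7 to 146), or 105 from the rule's means.

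Being near the control level at 2 h was a loose property for many members. The 2 h mean lay above the control mean in 60 members and below it in 32, with a median ratio of 1.16 and quartiles of 0.93 and 1.57, and it was within 1.5 times of the control mean in 62. The 2 h and control libraries overlapped in 51 members. In 36 members both 2 h libraries lay above both controls (32.7% of tested unigenes did), and in 5 members both lay below (32.6%). EdgeR called 16 members higher after 2 h, against 14.3% of tested unigenes called higher, and 1 member lower, against 14.4%. The rule used this contrast, so nothing is read from these counts beyond that 75 members were not called. The single fall was of the member at rank 4, and the member at rank 3 was among the rises.

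Depth set how far the 2 h level could be fixed. A member's 2 control libraries held 0 to 669 reads together, with a median of 52. The 95% counting interval of the 2 h to control ratio lay wholly within the limits of the rule for 32 members, and it included 1 for 60. None of the 15 members with fewer than 20 control reads had an interval within the limits, so whether these stayed within the limits at 2 h could not be resolved at this depth. For the 12 h ratio the lower bound was at least 8 in 65 members.

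The limits of the rule cut through values without a gap. The member with the lowest 12 h mean had 153 and the nearest unigene outside that limit 149. The smallest ratio inside the 8-fold limit was 8.05 and the largest outside it 7.997, followed by 7.97 for a unigene with a control mean of 1793 and a 12 h mean of 14280. The 2 h ratios next to the upper limit were 1.998 inside and 2.02 outside, where the unigene was abundant, with a control mean of 448 and a 12 h mean of 23672. Next to the lower limit they were 0.69 inside and 0.63 outside.

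The late rise was also read in libraries that had not been used to choose the unigenes. The rule was applied without 1 library at a time, keeping the size factors of all 6, and the library left out was then measured against the same limits. Without 12 h replicate 1, 89 unigenes were chosen, and 86 of them, 96.6%, had at least 150 normalized reads and 8 times the control mean in that replicate. Without 12 h replicate 2, 101 were chosen and 86, 85.1%, passed in it. These are the same 86 unigenes, since in both cases each 12 h replicate had to meet the limits by itself. The control mean was also the one used for the choice, so the ratios in the left-out library are not fully separate from it. Median ratios over control in the left-out 12 h library were 12.7 and 11.5, with the lowest at 4.68 and 6.64.

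The level at 2 h was read in the same way, against the limits on both sides of the control mean. Of 86 unigenes chosen without 2 h replicate 1, 65 lay within the limits in it, 12 above and 9 below. Of 87 chosen without 2 h replicate 2, the same 65 lay within, 13 others above and 9 below. Their median ratios to the control mean in the left-out library were 1.12 and 1.20, and single values ran from 0.26 to 4.82 and from 0.24 to 7.88. With control replicate 1 left out, the 12 h mean was at least 8 times that replicate in 84 of 97 unigenes, and with control replicate 2 left out in 77 of 83. All limits that involve the control were met in 66 of each, and these are the same 66 unigenes.

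**Figure D4:**
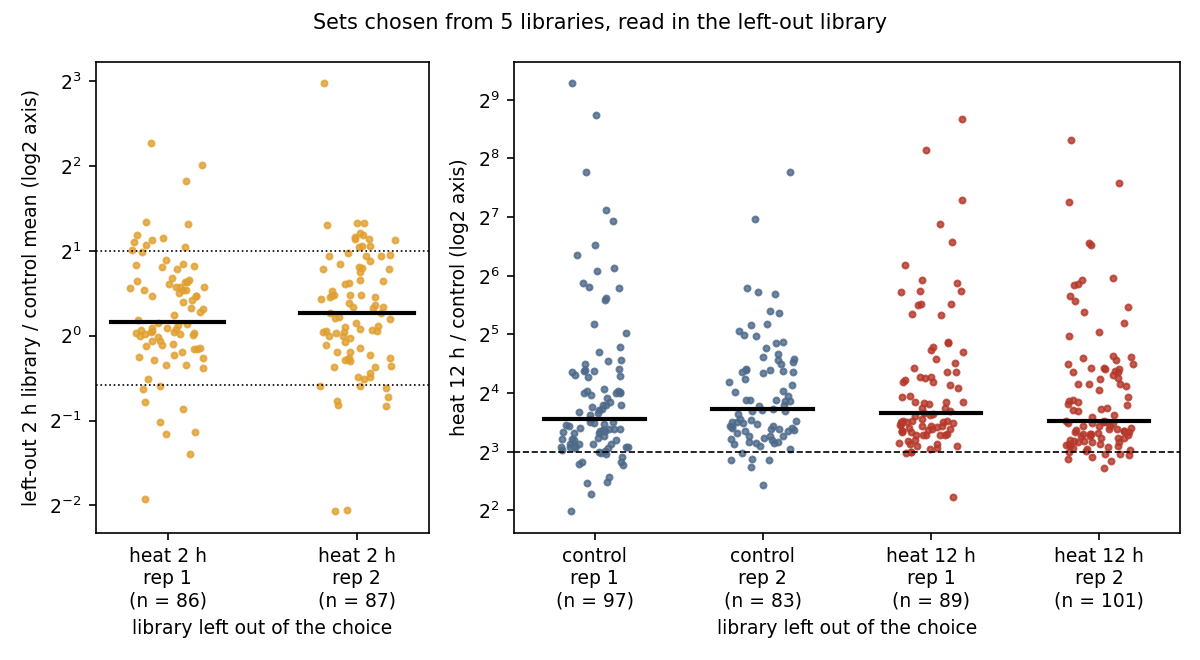
Each point is a unigene chosen from 5 libraries; the left panel gives the left-out 2 h library over the control mean, and the right panel the 12 h mean over the left-out control library or the left-out 12 h library over the control mean, on log2 axes. Black bars are medians, the dotted lines are the 2 h limits and the dashed line is 8-fold. Most points stay above 8-fold on the right, with medians of 11.5 to 13.2, while 12 and 13 points lie above the 2 h limits and 9 and 9 below them on the left.

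The 2 libraries of the 12 h group were close for most members. They differed by more than 1.5 times in 4 members, 4.35% of the set, against 5.90% of the 8376 unigenes with a 12 h mean of at least 150. Replicate 1 was the higher in 71 of the 92 members, 77.2%, against 60.7% of those 8376 unigenes. The median log2 ratio of replicate 1 to replicate 2 was 0.083 over the members and 0.050 over the 8376. In the controls 29 of the 89 members with a read in both libraries differed by more than 1.5 times, and after 2 h 28 of 91 did. For the controls this is 32.6% of members, against 20.3% of tested unigenes and 3.21% of unigenes with a 12 h mean of at least 150. Control replicates thus differed more often in the members than in either comparison set, and the reason was not tested. The sets were not matched for control reads, of which the median member had 52 over both libraries. Nothing about the members is therefore read from these shares, and the 2 h count has no comparison beside it.

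Implied lengths of the members spanned a wide range, with a median above that of all tested unigenes. In the members the median was 2018 bases (quartiles 1438 and 2721). Their lengths ran from 294 to 9664 bases, and 47 members exceeded 2000 bases. The median was 1121 bases over the 23490 tested unigenes with a value and 1666 bases over the 8376 unigenes with a 12 h mean of at least 150. Longer transcripts collect more reads and reach that limit more easily, so the last of these medians is the nearer comparison. No test of this difference was made.

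Unigenes that met the same 12 h limits numbered 195, and the members were 47.2% of them. In 91 others the 2 h mean was already at least 2 times the control mean, and in 12 it was at most the control mean divided by 1.5. The median 12 h ratio was 12.8 in the members, 14.5 in the 91 and 15.2 in the 12, and median control levels were 1.64, 1.66 and 0.96 FPKM in that order. Median implied lengths were 2018, 1258 and 2112 bases. The members held 1.31% ± 0.0548 of the 12 h reads, and the 91 early risers 5.18% ± 0.493 (SD, n = 2). Of the early risers' share, 1 unigene alone held 3.63% ± 0.431 and the other 90 together 1.54% ± 0.0623 (SD, n = 2). The median 12 h mean was 421 normalized reads in the members and 333 in the 91. These sets were cut from the same values and no test between them was made.

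Other unigenes of the members' components gave a readout that the rule had not used. Components were read from the IDs alone. The 92 members fell into 91 of them, and 65 were alone in theirs. The share with company, 29.3%, compares with 34.4% of the unigenes with a 12 h mean of at least 150. Of the remaining 27 members, 2 shared a component only with each other. The others had 37 partner unigenes outside the set, of which 26 were tested. After 12 h 12 partners were higher than in the controls, 5 were lower and 9 were not called (edgeR, adjusted p over all tested unigenes). As shares of the 26 partners the rises were 46.2%, against 27.6% of all tested unigenes, while 24.4% of all tested unigenes were called lower. After 2 h 5 of the 26 partners were called higher, none was called lower and 21 were not called, where 14.3% of all tested unigenes were called higher and 14.4% lower. Most of those 5 belonged to the component of the member at rank 38. The number of lower partners at 12 h was 8 with DESeq2's size factors, 3 without the filter on low counts, and 0 with library totals and in the limma fits. It was 3 without control replicate 1 and 2 without 12 h replicate 2. The higher partners numbered 6 without control replicate 1.

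Several partners were higher at 12 h, as their member was. The partner of the member at rank 9 had 17.8 and 17.2 normalized reads in the controls, 10.2 and 6.96 after 2 h, and 141 and 131 after 12 h. Its log2 fold change was 2.91 ± 0.26 at 12 h against control (SE; edgeR adjusted p = 1.38e-06), and both 12 h libraries lay far above the others. At 2 h both libraries lay below both controls, a difference of -1.04 ± 0.39 on the log2 scale that was not called (SE; edgeR adjusted p = 0.0652), whereas its member had 1 library of that time between the controls and 1 above them. The partner of the member at rank 87 had 9.90 and 8.62 normalized reads in the controls, 12.7 and 9.28 after 2 h, and 107 and 74.5 after 12 h. Its log2 fold change was 3.23 ± 0.35 (SE; edgeR adjusted p = 8.43e-06). A partner of c89898_g2 had 1 and 0 reads in the controls, 1 and 0 after 2 h, and 95 and 22 after 12 h. It was called higher (edgeR adjusted p = 0.0199), on 1 control read in all and with 12 h libraries that lay far apart.

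Of the 8 partners with a fitted 12 h rise of at least 8-fold, 2 had no control read, 3 had 1 to 3 control reads and 3 had more. Partners and members of a component may share reads, so partners are not fully separate measurements, and the 26 partners came from only 18 components. In the 3 components with at least 3 tested partners, 1 of 11 partners was called higher, whereas 11 of the 15 partners elsewhere were; this split was made after the values were seen.

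Some partners differed from their member at 2 h or at 12 h. The partner of the member at rank 4 had 863 and 1026 normalized reads in the controls, 3476 and 3222 after 2 h, and 1353 and 1353 after 12 h. It was higher after 2 h by 1.83 ± 0.12 on the log2 scale (SE; edgeR adjusted p = 4.22e-07), at the time when that member stood at its lowest, and the 2 h libraries lay above all others. At 12 h its log2 fold change over control was 0.49 ± 0.12 (SE; edgeR adjusted p = 0.00355). It is thus among the 12 partners called higher, with a far smaller rise than its member. Among the 5 called lower was a partner of the member at rank 20. It had 212 and 203 normalized reads in the controls, 331 and 258 after 2 h, and 162 and 110 after 12 h. Its log2 fold change at 12 h against control was -0.65 ± 0.19 (SE; edgeR adjusted p = 0.015).

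**Figure D5:**
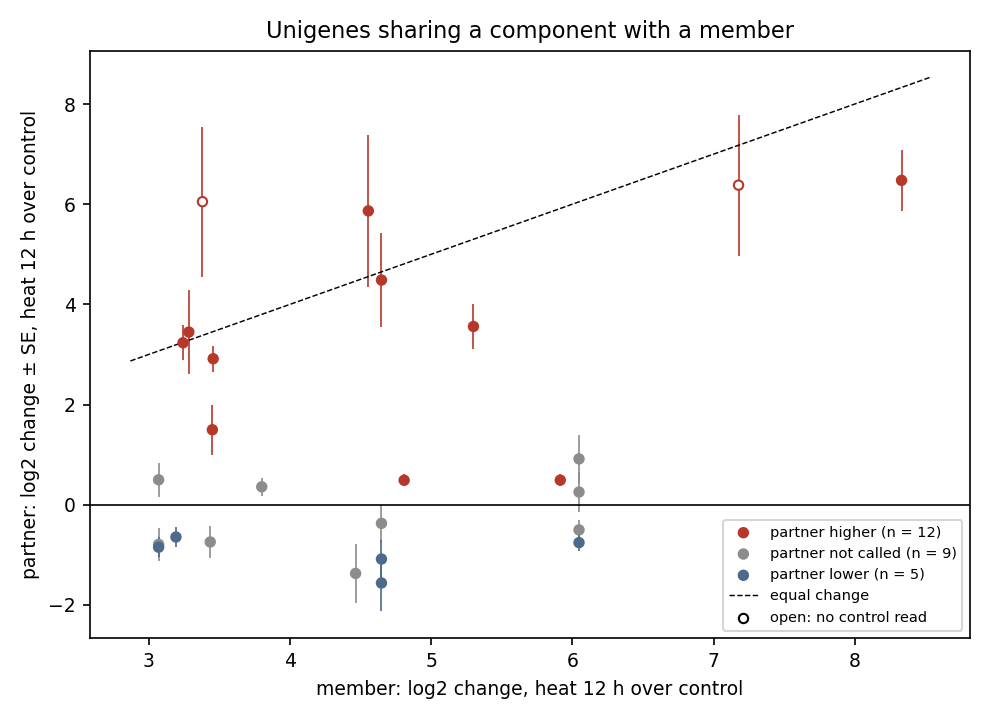
Log2 fold change of heat 12 h over control for the 26 tested partner unigenes (y axis, edgeR estimate ± SE) against that of the member in the same component (x axis). Colours give the edgeR call, open points had no control read, and the dashed line marks equal change; 12 partners are higher, 5 lower and 9 not called.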

How the data were processed

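Leaf RNA of 6 libraries was sequenced, and the analysis began from 2 tables with 111743 unigenes each. Estimated counts were deposited by the authors without scaling between libraries; 99.3% of the values above 0 were whole, and all were rounded for testing. FPKM values, scaled by the authors to a length and the library total, make up the other table. That length was not 1 fixed value per unigene, since the length implied differed between groups. For the member at rank 5 it was 2502 bases in the controls, 2522 bases after 2 h and 2499 bases after 12 h. The sheet with the counts is named for tall fescue, while its columns carry the bermudagrass sample names; in each library 100.0% of the unigenes were above 0 in both tables or in neither, so the counts and the bermudagrass FPKM values were taken as the same libraries. DESeq 1.18.0, HTSeq 0.6.1, TopHat2 2.0.12 and Bowtie2 2.2.3 were used per the submitters' processing notes, which state no roles. The assembler, the counting step and its use of strand are not given in the labels or headers.

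Size factors were medians of ratios over the 18038 unigenes with at least 10 reads in every library. Unigenes were filtered by filterByExpr (minimum count 10, minimum total 15), TMM-scaled (trimmed mean of M-values) and tested in edgeR 4.0.16 (R 4.3.3, glmQLFit with robust estimation, glmQLFTest) with 1 mean per group over all 6 libraries, which left 3 residual degrees of freedom. P-values were adjusted by Benjamini-Hochberg over the 25828 unigenes tested, with a threshold of 0.05. The planned test for counts was kept for these estimated counts. Standard errors are the fold change over the square root of F. Counting intervals are exact (Clopper-Pearson, 95%) and cover counting error only. Implied length is the read count over FPKM and library total, from values of at least 20 reads. It is the length behind the FPKM values and may differ from that of the transcript itself. Within each group the 2 libraries differed by more than sampling noise (chi-square per degree of freedom 3.85 to 8.30), so none is a copy. The procedure was tested on simulated data.

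The members and the tests were chosen with earlier results of these data known. The 2 printed IDs are the members with the highest mean FPKM after 12 h; other members are given by rank of that mean, by largest ratio or by closeness to a limit. DESeq2 1.42.0, limma 3.58.1 on log2(FPKM + 1) and other scalings, filters and left-out libraries were tried as alternatives. Gene lists could not be used, since no IDs are paired with names, and no sequence is printed.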

Additional observations from a re-analysis of the deposited data

How the results depend on the processing

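All 92 members were called higher after 12 h than in the controls, and higher after 12 h than after 2 h, under each alternative run. That outcome follows from the choice of members on the same libraries and is no support for the set. With library totals 13467 of all 25828 tested unigenes were also called higher after 12 h than in the controls. The rule kept between 84 and 92 of them under other size factors, library totals, other added constants and fixed lengths, and chose 86 to 102 unigenes, except that library totals gave 191. The median log2 ratio of 12 h to control over the members, 3.68, became 4.26 with library totals, where the median of all tested unigenes moved from 0.15 to 0.72. Such a change of scale moves the log2 ratio of every unigene by nearly the same amount. The members' place relative to all tested unigenes therefore could not change, and nothing is read from it. With 1 library left out and the size factors estimated anew from the other 5, the rule chose 87 to 96 unigenes, and 73 to 89 of the 92 members were among them.

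The calls at 2 h depended on the tool and the libraries, and the cause was not tested. Members called higher, 16 here, were 7 with DESeq2, 3 with limma on log2(FPKM + 0.1), 1 with limma on log2(FPKM + 1) and 1 without its filter (unigenes at 0 in every library still left out), and members called lower were 0 in these 4. Without 1 library the higher members ranged from 5 to 16 and the lower from 0 to 2, with the fewest higher, 5, without control replicate 1 and 8 without control replicate 2. Of all tested unigenes 7425 were called at 2 h, against 4851, 3738 and 2484 in these limma fits, which also tested more unigenes, and 4230 to 7877 without 1 library, the lowest without control replicate 1. At 12 h the share of higher calls over all unigenes was 7131 of 13422, and with library totals 13467 of 16746. Without 1 library 10017 to 13817 were called at 12 h against control, and 9198 to 11390 between the times.

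Same-numbered libraries share only a number in the labels. With the replicate block the members called higher were 92, 17 and 92 for 12 h against control, 2 h against control and 12 h against 2 h, with 14496, 8683 and 12928 of all unigenes called. Deviations of same-numbered libraries correlated across unigenes at 0.0078 between control and 2 h and at 0.035 between control and 12 h. Between 2 h and 12 h the correlation was 0.29.

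Depth limits the control and 2 h levels, since 15 members had fewer than 20 control reads.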

Other observations

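A shift in implied transcript length between groups, as in c89898_g2, was uncommon among well-covered unigenes. Of 8328 unigenes with a 12 h mean of at least 150 and at least 20 reads in every group, 61 differed by more than 1.5 times between heat 2 h and control and 60 between heat 12 h and control. Over all 19364 tested unigenes with that many reads the numbers were 408 and 444. Ratios of heat 12 h to control ran from 0.11 to 22.5, with a median of 0.997. Scaling by library total already sets FPKM folds at 12 h apart from those of normalized counts across unigenes. In unigenes with a length shift a further difference is added, and an analysis of either table alone does not show that shift.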
